A study of Mus musculus with 9 samples.

Results

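The Ly6 genes described here encode 6 monocyte and granulocyte surface proteins, Ly6a, Ly6c1, Ly6c2, Ly6e, Ly6g and Ly6i, and they were taken by gene symbol from the 53379 genes of the deposited table. They were selected on a readout of these same data, their levels in the 3 conditions, so their own levels and fold changes are given as a description. No p is given for a member. Counts of members past the limits for a call stand beside the share of all genes in the main fit, and under alternative settings they are a description only. Mouse bone marrow cells of wild-type C57BL/6 mice were grown for 3 days with 10 ng/ml CSF-1, which drives their differentiation into macrophages (Mϕs), and then for 4 days under 1 of 3 conditions. Control Mϕs received 10 ng/ml CSF-1 alone, IL-4-treated Mϕs received CSF-1 with 10 ng/ml IL-4, and IL-6-treated Mϕs received CSF-1 with 100 ng/ml IL-6, as far as the labels can be read: the IL-6 dose there has a misplaced digit, and 100 is its likely reading. The study's text gives a single dose for both cytokines, and its figure legend another dose and a shorter treatment, so the cytokines were not compared at a matched dose that can be named here. Each condition has 3 libraries, numbered #1 to #3. The column names carry m1 to m3 in each condition, read here as mouse numbers. Whether a number stands for the same mouse across conditions is not stated. The age of the mice is not given in the sources used here.

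Ly6 proteins are small, cysteine-rich proteins with a finger-like fold that are held on the outer face of the cell membrane by a glycosylphosphatidylinositol (GPI) anchor. In mice they serve as flow cytometry markers: Ly6C, encoded by Ly6c1 and Ly6c2, marks inflammatory monocytes, Ly6G marks neutrophils, and Ly6A, also called Sca-1, marks hematopoietic stem cells and lymphocyte subsets. Several members, among them Ly6e and Ly6a, are known interferon-inducible genes, and IL-6 acts through the transcription factor STAT3 while IL-4 acts through STAT6.

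Values are FPKM, fragments scaled by exon length and by library depth, which puts genes of different length on a scale per length. Each library held between 29988160 and 39909571 fragments, read back from the steps in the FPKM values. A gene was called changed at a limma adjusted p under 0.05, adjusted over the 12824 genes whose FPKM averaged 0.5 or more, if its log2 fold change on the log2(FPKM + 0.1) scale also reached 1 in either direction. The median log2 fold change of all these genes was -0.20 for IL-4-treated against control Mϕs and 0.22 between the cytokines (IL-6 against IL-4). Fold changes in those comparisons are given without a correction for that shift. The macrophage marker Lyz2 stood at 4479 FPKM or more in every library. With IL-4, 5 of 12 macrophage markers were called lower and 1 higher, against 3 and 1 with the library set as a covariate. Of all tested genes, 8.89% were called lower and 5.02% higher with IL-4, and 3.49% higher with IL-6. Lyz2 was at 13786 to 16064 FPKM in control and at 4479 to 5734 FPKM with IL-4 (log2 fold change -1.53, limma adjusted p = 0.000191), and Cd14 was at -2.53 (adjusted p = 0.000366). With IL-6, Cd14 alone was called higher (1.27, limma adjusted p = 0.0262), and 0 markers were with the library set, where 4 had an unadjusted p under 0.05. The part of these differences in the levels of the Ly6 genes was not tested. In bulk RNA, fewer cells of a type and less RNA per cell cannot be told apart. The libraries also split by transcripts of intestinal Paneth and goblet cells: the marker list without Lyz1 summed to 40.9 to 62.5 FPKM in the 3 control libraries and IL-4 #1, and to 0.0139 to 0.175 FPKM in IL-4 #2, IL-4 #3 and the 3 IL-6 libraries. Skeletal muscle markers summed to 1.91 to 8.26 FPKM in the first set and to 9.12 to 15.8 FPKM in the second. Control Mϕs lie wholly in the first set and IL-6-treated Mϕs wholly in the second, so their difference and that of the sets cannot be told apart without IL-4 #1, the library that links them. Most main results are therefore also given within a set or with the library set fitted as a covariate.

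The 6 genes lie within 204.1 kb of chromosome 15 (chr15:74955051-75159126, GRCm38, GENCODE M21 coordinates), in the order Ly6e, Ly6i, Ly6a, Ly6c1, Ly6c2 and Ly6g, and they are related in sequence to different degrees. The pair whose reads are hardest to separate is Ly6c1 (chr15:75044018-75048830, minus strand) and Ly6c2 (chr15:75108158-75111970, minus strand), whose coding sequences differ at 9 of 393 bases, an identity of 97.7%. The first 120 coding bases are shown because they hold 6 of these 9 differences. They were taken from the GENCODE M21 transcripts on GRCm38 and are printed 5′ to 3′ from the start codon, with capitals at the bases that differ.
Ly6c2: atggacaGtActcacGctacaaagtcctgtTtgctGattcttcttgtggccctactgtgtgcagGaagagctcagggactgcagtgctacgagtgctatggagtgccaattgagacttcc
Ly6c1: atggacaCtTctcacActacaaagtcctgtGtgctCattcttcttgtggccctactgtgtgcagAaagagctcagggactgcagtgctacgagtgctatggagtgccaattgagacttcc

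Outside this pair, Ly6a, Ly6c1, Ly6c2, Ly6g and Ly6i were 77.9% to 86.3% identical over their aligned coding bases, and Ly6e was 58.4% to 60.5% identical to the other 5. The amount of exact repetition differed more. Of all stretches of 50 bases in the transcripts of Ly6c1, 32.8% also occurred in transcripts of other genes, against 19.0% for Ly6a, 14.4% for Ly6c2, 4.8% for Ly6i, 0.4% for Ly6g and 0.0% for Ly6e. In the coding part alone, the share was highest for Ly6c2, at 48.0%, followed by Ly6c1 at 31.7% and Ly6a at 14.4%. Ly6c1 and Ly6c2 shared 379 stretches, and Ly6c1 and Ly6a shared 195. How the authors' counting treated a fragment that fits several genes is not given in the sources used here, so levels of Ly6c1, Ly6c2 and Ly6a are uncertain to that extent, while Ly6e and Ly6g have almost no such sequence.

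**Figure D1:**
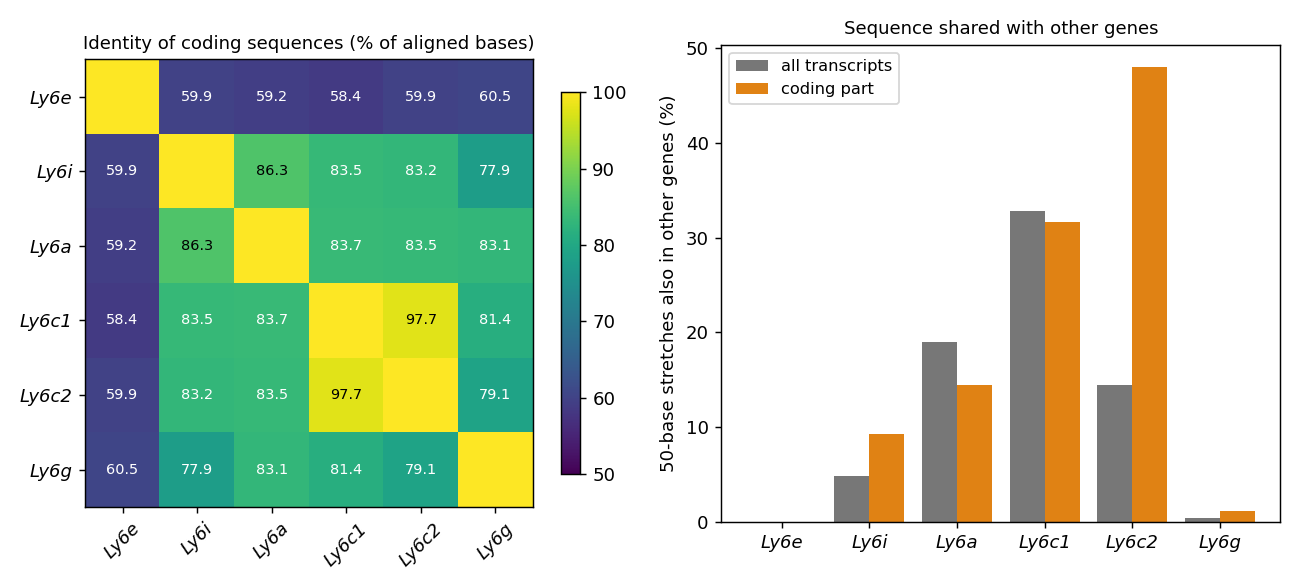
Left, identity of the coding sequences of each pair of Ly6 genes, as percent of aligned bases. Right, percent of 50-base stretches of each gene that also occur in transcripts of other genes, for all its transcripts (gray) and its coding part (orange). Ly6c1 and Ly6c2 stand out at 97.7% identity, and Ly6e shares no stretch with another gene.

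Ly6e, which is known as a restriction factor for several viruses and as a receptor for the placental protein syncytin-A, was the most abundant of the 6 genes in every library. Control libraries #1 to #3 had 47.3, 63.0 and 49.5 FPKM, IL-4 libraries 73.7, 48.1 and 42.9 FPKM, and IL-6 libraries 119, 149 and 128 FPKM. The IL-6 libraries were all above the others, whereas control and IL-4 libraries overlapped, with IL-4 #1 the highest of them. Means were 53.3 ± 8.50 FPKM for control Mϕs, 54.9 ± 16.5 after IL-4 and 132.0 ± 15.4 after IL-6 (SD, n = 3 each), so the level with IL-6 was 2.48-fold that of control. On the log2 scale the difference from control was 0.02 (SE 0.218) with IL-4 and 1.31 (SE 0.218) with IL-6. Ly6e (chr15:74955051-74959905, plus strand) has no 50-base stretch in common with another gene, and it made up 66.7% to 73.3% of the summed FPKM of the 6 genes in control libraries, 78.5% to 84.7% in IL-4 libraries and 59.0% to 61.4% in IL-6 libraries.

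Ly6c2, which together with Ly6c1 encodes the Ly6C antigen that separates inflammatory from patrolling monocytes, differed from control in opposite directions with IL-4 and IL-6. It stood at 10.5, 15.8 and 14.5 FPKM in control, at 7.67, 5.18 and 4.80 FPKM with IL-4, and at 39.7, 44.0 and 44.9 FPKM with IL-6. No group overlapped another, and IL-4 lay below and IL-6 above control. The means were 13.6 ± 2.77, 5.88 ± 1.56 and 42.9 ± 2.81 FPKM (SD, n = 3 each), which is 0.432 times the control level with IL-4 and 3.15 times with IL-6. The log2 fold change relative to control was -1.21 after IL-4 and 1.67 after IL-6, and IL-6 exceeded IL-4 by 2.87 (SE 0.213 each). Within the first set of libraries, IL-4 #1 had 0.563 times the control mean, and within the second, the IL-6 mean was 8.59-fold that of IL-4 #2 and #3. With the library set as a covariate, the IL-4 log2 fold change became -0.80 (SE 0.236) and no longer passed the fold limit. After median-ratio rescaling the IL-4 value was -1.01, close to that limit.

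Ly6c1 had almost no fragments, which is why it did not pass the filter. Libraries #1 to #3 held 4, 0 and 0 of its fragments in control Mϕs, 3, 0 and 0 after IL-4, and 4, 1 and 1 after IL-6, and its highest level in any library was 0.0684 FPKM. Of its 13 fragments, 11 came from the libraries numbered #1, those of the same mouse number. Summed over 3 libraries and divided by depth, the ratio of IL-6 to control was 1.53 with an exact 95% interval of 0.362 to 7.35 that covers counting error only, so a difference was not detectable at this depth. The fragments assigned to the Ly6C pair thus came almost wholly from Ly6c2, within the limit that their 379 shared stretches set on the assignment.

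Ly6g, the antigen used to gate neutrophils, had the smallest difference between IL-6 and control of the 5 tested members. The values were 4.44, 6.37 and 8.14 FPKM in control, 2.86, 2.24 and 4.97 FPKM with IL-4, and 5.66, 8.68 and 10.4 FPKM with IL-6. In each condition #3 was the highest, the spread inside a group was wide, and both cytokine groups overlapped control, while the IL-6 libraries all lay above the IL-4 libraries. Within each of the 3 mouse numbers, Ly6g was lowest with IL-4 and highest with IL-6. The means were 6.32 ± 1.85, 3.36 ± 1.43 and 8.25 ± 2.4 FPKM (SD, n = 3 each). The log2 fold change relative to control was -0.93 after IL-4 and 0.38 after IL-6, and IL-6 exceeded IL-4 by 1.31 (SE 0.356 each). With the mouse number as a replicate block the standard errors of Ly6g were 0.220. With the library set as a covariate, its IL-4 log2 fold change was -1.08 (SE 0.527).

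Ly6a, the stem cell antigen Sca-1, and its neighbor Ly6i, a close relative with little described function, were the members with the largest differences between IL-6 and control. Ly6a had 1.97, 2.41 and 1.96 FPKM in control, 3.28, 1.26 and 1.89 FPKM with IL-4, and 20.3, 30.6 and 24.6 FPKM with IL-6. The IL-6 libraries stood far above all others, and the IL-4 libraries lay on both sides of control, with IL-4 #1 again the highest. The mean level of Ly6a with IL-6 was 25.2 ± 5.21 FPKM, beside 2.11 ± 0.254 for control Mϕs and 2.14 ± 1.03 after IL-4 (SD, n = 3 each), an 11.9-fold difference from control. Its log2 fold change was -0.08 (SE 0.317) for IL-4 and 3.50 (SE 0.317) for IL-6 against control. Within the second set, the IL-6 mean was 16.0-fold that of IL-4 #2 and #3, and within the first, IL-4 #1 had 1.55 times the control mean. Ly6a (chr15:74994877-74998031, minus strand) lies 39.8 kb above Ly6e, counted between their lower coordinates.

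Ly6i (chr15:74979534-74983430, minus strand) was near the floor of 3 fragments unless IL-6 was present. Its values were 0.248, 0.0865 and 0.123 FPKM in control (10, 3 and 5 fragments), 0.0759, 0.0 and 0.108 FPKM with IL-4 (3, 0 and 5 fragments), and 9.92, 10.2 and 9.29 FPKM with IL-6 (400, 384 and 330 fragments). The IL-6 libraries were close to each other and far above the rest, and control and IL-4 overlapped. Ly6i passed the filter only through its IL-6 libraries, so it had to differ between groups. The summed 1114 fragments with IL-6 against 18 in control gave a ratio of 63.0 per fragment sequenced, with an exact 95% interval of 39.7 to 107 for counting error only. The fitted log2 fold change of 5.34 (SE 0.349) depends on the pseudocount: it was 3.23 with a pseudocount of 1 and 6.04 with 0.01. Of the 12824 genes, Ly6i ranked 12 and Ly6a ranked 50 by log2 fold change for IL-6 against control, followed by Ly6c2 at 366, Ly6e at 567 and Ly6g at 2771.

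**Figure D2:**
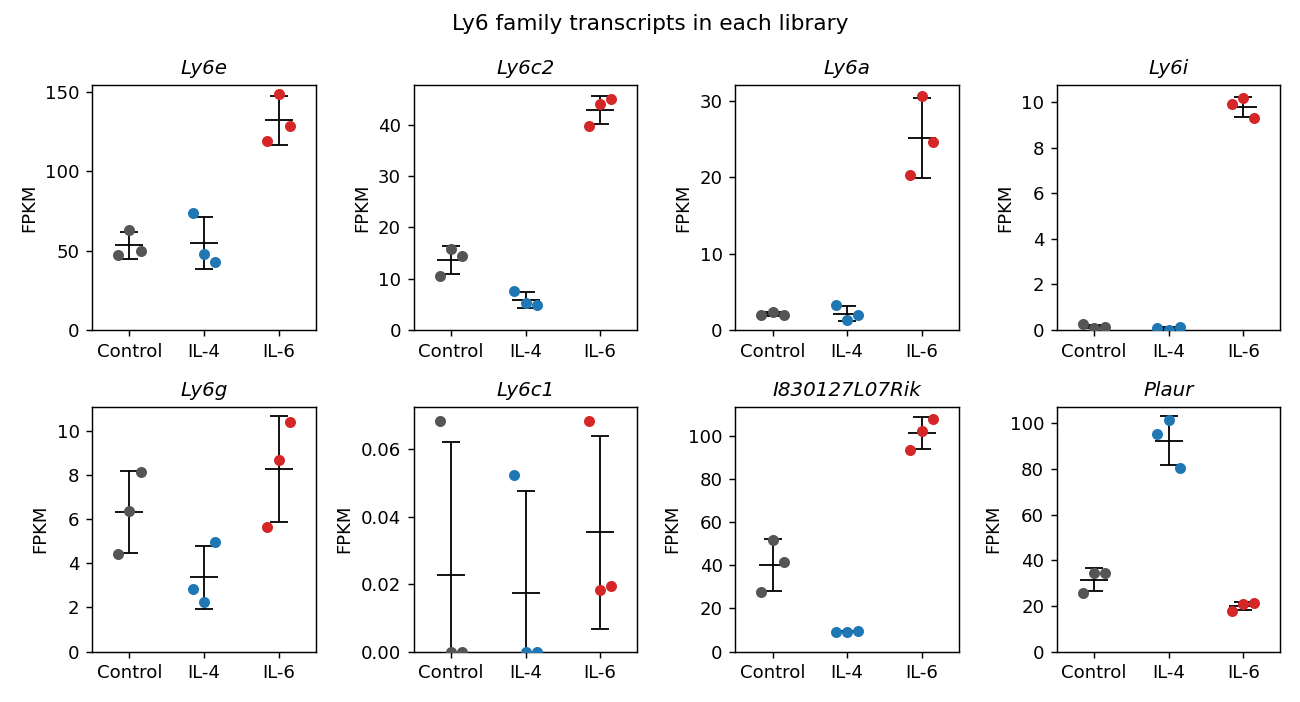
FPKM (linear axes from 0) of the 6 Ly6 genes, of the neighboring gene I830127L07Rik and of the family gene Plaur in each library, left to right #1 to #3 within a group. Lines give the mean and bars the SD of 3 libraries, cut at 0. Ly6e, Ly6c2, Ly6a and Ly6i have all 3 IL-6 points above the other 6, Ly6g overlaps control, and Ly6c1 reaches 0.0684 FPKM at most.

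For IL-6 against control, 4 of the 5 tested members, Ly6a, Ly6c2, Ly6e and Ly6i, were called higher, beside 3.49% of all tested genes, and the same 4 had IL-6 libraries that did not overlap control, beside 20.0% of all tested genes lying wholly above. For IL-4 against control, 1 of 5, Ly6c2, was called lower, beside 8.89% of all tested genes, and its IL-4 libraries lay wholly below control, beside 26.8%. For IL-6 against IL-4, 5 of 5 were called higher, beside 13.6%, and their IL-6 libraries lay wholly above, beside 36.3%. Of them, Ly6g was called in the fewest alternatives. Since the genes were chosen with these comparisons known, nothing is read from these counts. Control libraries enter both cytokine comparisons, which therefore are not independent. The summed level of the 6 genes ran from 64.5 to 87.7 FPKM in control, from 54.7 to 87.7 FPKM with IL-4 and from 194 to 242 FPKM with IL-6. Without Ly6e the other 5 summed to 17.2 to 24.7, 8.70 to 13.9 and 75.6 to 93.5 FPKM, and on that sum no group overlapped another.

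**Figure D3:**
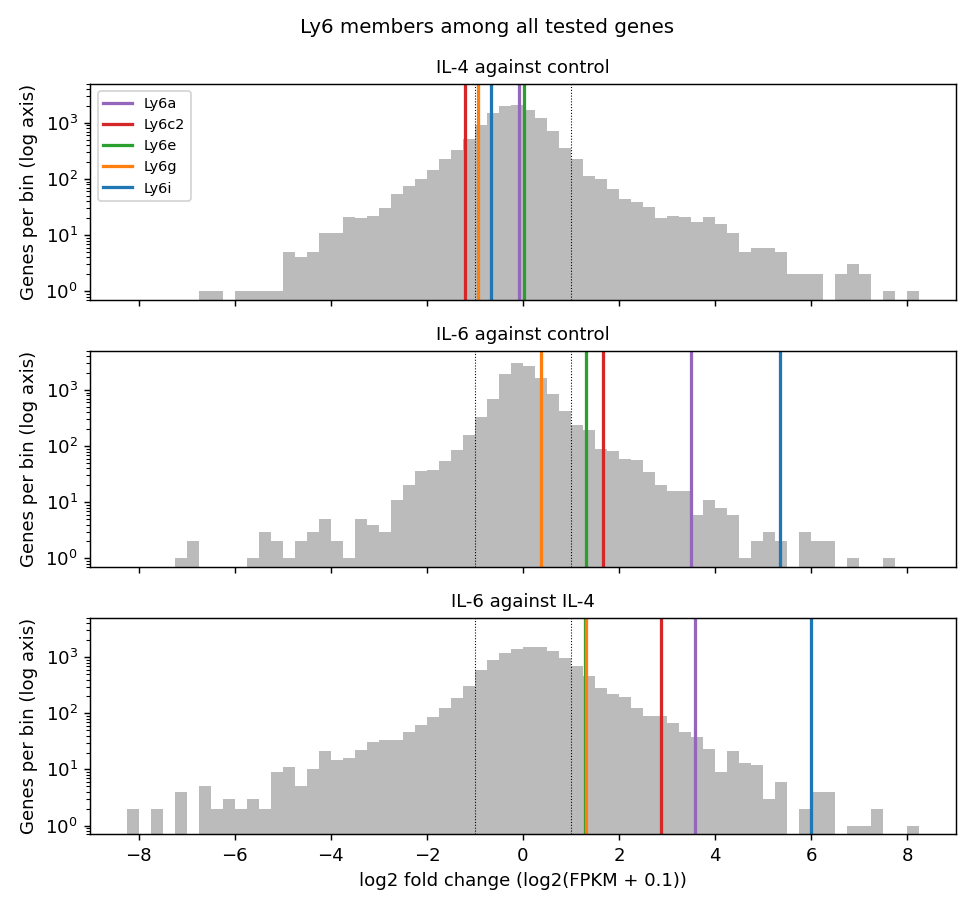
Histogram of the log2 fold change of the 12824 tested genes (gray, log axis) in each comparison, with the 5 tested Ly6 members as colored lines and the fold limit dotted. With IL-6 against control the members run from 0.38 for Ly6g to 5.34 for Ly6i, and with IL-4 against control from -1.21 for Ly6c2 to 0.02 for Ly6e.

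The gene next to Ly6c2 had the same order of conditions. I830127L07Rik, named Ly6a2 by RefSeq and annotated by GENCODE as a transcribed unprocessed pseudogene (chr15:75131377-75135128, minus strand), lies between Ly6c2 and Ly6g. It stood at 27.4, 51.5 and 41.4 FPKM in control, at 9.13, 9.01 and 9.42 FPKM with IL-4, and at 93.2, 102 and 108 FPKM with IL-6. As for Ly6c2, IL-4 lay wholly below and IL-6 wholly above control. It was 4.36-fold lower with IL-4 (log2 fold change -2.07, SE 0.209, limma adjusted p = 0.000275) and 2.52-fold higher with IL-6 (1.38, SE 0.209, adjusted p = 0.00582), and it was higher with IL-6 than with IL-4 by 3.44 (adjusted p = 1.25e-05). Fitted with the library set as a covariate, the IL-6 value was 1.36, with a limma adjusted p of 0.16. The windows of 250 bases before the RefSeq start sites of Ly6c2 (GRCm38.p6, chr15:75111972-75112221, minus strand) and I830127L07Rik (chr15:75135129-75135378, minus strand) were identical at all but 4 of 245 aligned bases, an identity of 98.4%, while that of Ly6c1 (chr15:75048838-75049087, minus strand) matched Ly6c2 at 75.9% of 216 aligned bases. The window of Ly6g matched that of Ly6c2 at 80.3% of 173 aligned bases, and that of Ly6f, a family gene with no fragment in any library, at 81.2% of 224. The first 3 windows are shown for the contrast between 4 differing bases and many. Capitals mark bases that differ from, or have no partner in, I830127L07Rik for Ly6c2, and Ly6c2 for the other genes.
Ly6c2: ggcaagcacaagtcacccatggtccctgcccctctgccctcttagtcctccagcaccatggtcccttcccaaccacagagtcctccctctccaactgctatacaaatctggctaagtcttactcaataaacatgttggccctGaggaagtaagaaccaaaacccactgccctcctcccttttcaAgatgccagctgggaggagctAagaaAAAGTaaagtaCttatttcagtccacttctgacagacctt
I830127L07Rik: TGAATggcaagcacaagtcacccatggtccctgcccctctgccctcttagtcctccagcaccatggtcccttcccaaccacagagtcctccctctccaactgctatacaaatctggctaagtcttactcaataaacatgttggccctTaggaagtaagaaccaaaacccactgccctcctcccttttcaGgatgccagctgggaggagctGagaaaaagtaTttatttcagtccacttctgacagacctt
Ly6c1: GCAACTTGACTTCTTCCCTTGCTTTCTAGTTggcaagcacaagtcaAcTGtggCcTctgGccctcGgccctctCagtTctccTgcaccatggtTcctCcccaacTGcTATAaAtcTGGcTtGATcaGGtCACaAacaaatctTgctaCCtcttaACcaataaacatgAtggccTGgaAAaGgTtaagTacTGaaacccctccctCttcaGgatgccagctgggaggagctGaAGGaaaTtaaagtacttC

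RefSeq windows from 250 bases before to 50 after the start site were found for 4 of 7 genes, Ly6c1, Ly6c2, Ly6g and I830127L07Rik, and not for Ly6a, Ly6e and Ly6i. Neither the STAT3-type palindrome TTCNNNGAA, nor the STAT6-type palindrome TTCNNNNGAA, nor the interferon-response type (GAAA, NN, GAAA) occurred on either strand in the windows of any annotated start site of these 4 genes, where 8.3%, 7.0% and 3.4% of 32851 mouse windows hold them. The absence of these letters from a window says nothing on whether a factor binds elsewhere.

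Whether Ly6c2 or its neighbor appeared higher depended on the scale. In FPKM, I830127L07Rik exceeded Ly6c2 in every library, but its exons cover 798 bases and those of Ly6c2 cover 2740, since they include a transcript with a retained intron. By fragments Ly6c2 was ahead in every library, with 3782 to 3937 fragments with IL-6 against 2594 to 2662. Over the length of the longest transcript of Ly6c2 without that intron, 822 bases, its level was 45.4 ± 9.22 FPKM for control Mϕs, 19.6 ± 5.19 after IL-4 and 143 ± 9.37 after IL-6 (SD, n = 3 each), against 43.8 ± 13.2, 10.0 ± 0.229 and 110 ± 8.06 for the longest transcript of I830127L07Rik. The fragments of the neighbor per fragment of Ly6c2 ran from 0.758 to 0.947 in control, from 0.347 to 0.571 with IL-4 and from 0.676 to 0.699 with IL-6, with no overlap between groups. The transcripts of this pair share 3 stretches of 50 bases.

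**Figure D4:**
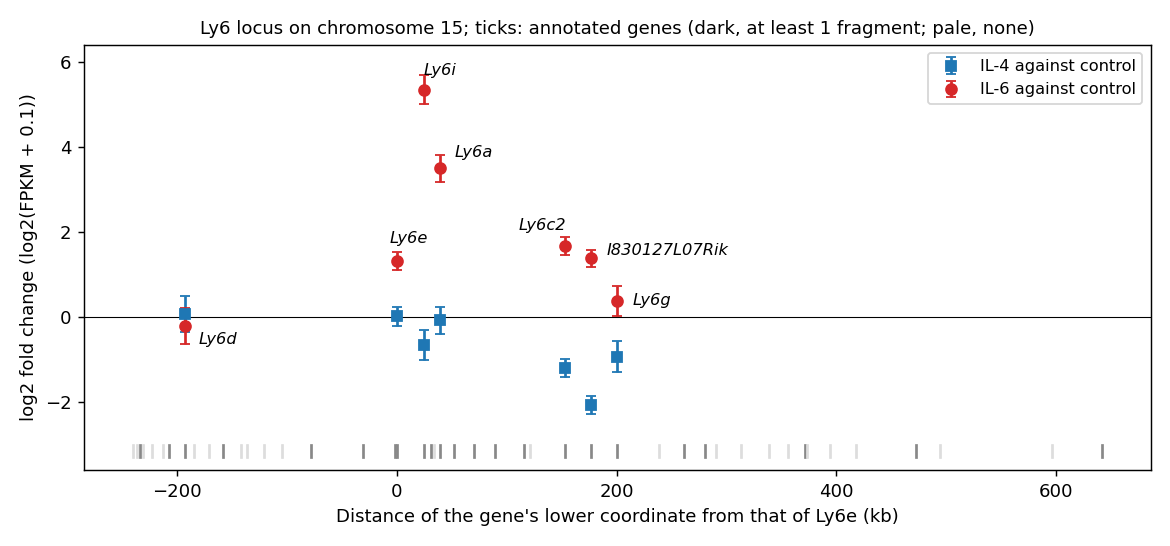
Log2 fold change against control (log2(FPKM + 0.1), bars SE) of the tested Ly6 family genes by distance from Ly6e in kb along chromosome 15, for IL-4 (squares) and IL-6 (circles), with ticks for annotated genes. IL-6 values are 5.34 for Ly6i and 3.50 for Ly6a, 1.67 for Ly6c2 and 1.38 for I830127L07Rik, while IL-4 values are -1.21 and -2.07 for the last pair.

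The family list held 36 further genes of the table, of which 6 passed the filter and 12 had no fragment in any library. Of the 6, Plaur, the urokinase receptor, went the other way from Ly6c2: it stood at 25.7 to 34.6 FPKM in control, 80.4 to 101 FPKM with IL-4 and 17.7 to 21.3 FPKM with IL-6. It rose with IL-4 (log2 fold change 1.55, SE 0.158, limma adjusted p = 0.000262), and its difference with IL-6 (-0.65, adjusted p = 0.0415) was below the fold limit. Within the first set of libraries, IL-4 #1 had 3.02 times the control mean of Plaur. Within the second, its IL-6 mean was 0.22 times that of IL-4 #2 and #3. Cd177, a neutrophil surface glycoprotein, ran from 26.1 to 34.5 FPKM in control, from 8.70 to 15.1 FPKM with IL-4 and from 32.5 to 46.7 FPKM with IL-6. It fell with IL-4 (-1.39, SE 0.231, limma adjusted p = 0.00348, or -1.04 and adjusted p = 0.0678 with the library set as a covariate), and the difference with IL-6 (0.35, adjusted p = 0.457) did not pass. Lypd8, a protein of the colon epithelium, had 1.53 to 2.23 FPKM in control and 1.64 FPKM in IL-4 #1, and no fragment in the other 5 libraries, which are the libraries without Paneth cell transcripts. Its limma adjusted p for IL-6 against control was 0.04 in the fit of all genes, 0.058 with the replicate block and 0.926 with the library set as a covariate. Cd59a, a complement regulator, and Ly6d, a lymphocyte progenitor antigen, at the other end of the locus, passed in no comparison.

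In all, 1 of the 6 tested family genes was called higher and 2 lower with IL-4, and 1 higher and 1 lower with IL-6, beside backgrounds of 5.02% and 8.89% for IL-4, and of 3.49% and 1.89% for IL-6. These 6 genes had, as log2 fold changes, a median of -0.66 after IL-4 and 0.04 after IL-6, beside -0.20 and -0.0044 over all tested genes. The 5 tested members had medians of -0.66 and 1.67. The -0.66 is the value of Ly6i itself, which was near the floor of 3 fragments in control and IL-4 libraries. It ran from -1.68 to -0.12 over the alternatives. Of the other members, Ly6c2 (-1.21) and Ly6g (-0.93) lay below it with IL-4, and Ly6a (-0.08) and Ly6e (0.02) above.

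Lists of genes that share a setting with the Ly6 proteins were read from the same fit. Classical monocyte genes, whose cells carry Ly6C, rose with IL-6 in 9 of 14 cases, at a median log2 fold change of 1.52, with Vcan at 5.10 (SE 0.307), the chemokine receptor Ccr2 at 3.43 (SE 0.490) and Hp at 2.72 (SE 0.297), each with a limma adjusted p of 0.00443 or less. With the library set as a covariate 4 of 14 were called higher. With IL-4 the same list split, with 6 lower and 2 higher: F13a1 fell by 5.31 on the log2 scale (limma adjusted p = 1.4e-05), whereas Fn1 rose by 7.14 and Chil3 by 5.59 (limma adjusted p = 9.22e-06 and 2.22e-06). Once the library set was a covariate, 4 were called lower and 3 higher with IL-4. The share of all tested genes called higher with IL-6 was 3.49%, and that called lower with IL-4 was 8.89%. Of 9 genes of patrolling monocytes, the Ly6C-low kind, 2 were called higher with IL-6, the chemokine receptor Cx3cr1 (1.04, limma adjusted p = 0.0363) and the nuclear receptor Nr4a1 (1.03, adjusted p = 0.00849), and 2 lower, the scavenger receptor Cd36 (-3.50, adjusted p = 0.000171) and Pparg (-2.09, adjusted p = 0.000944). The median was 0.50, and with the library set 0 were higher and 1 lower. With IL-4, 4 were called lower and 2 higher at a median of -0.86, with Cx3cr1 at -4.23 (limma adjusted p = 1.4e-05) and Cd36 at 1.54 (adjusted p = 0.00256).

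Of the neutrophil genes, the company of Ly6g, S100a9 and S100a8 were abundant in every condition. Others were not: Fcnb averaged 0.063 FPKM with IL-4, and Stfa2 averaged 0.071 FPKM in control. S100a9 ran from 2688 to 4886 FPKM in control, from 1304 to 2724 FPKM with IL-4 and from 4265 to 6079 FPKM with IL-6, and S100a8 from 1125 to 1978, from 427 to 933 and from 2172 to 2826 FPKM. With IL-4, 16 of 20 genes of the list were called lower and 2 higher, with Fcnb at -4.89 (limma adjusted p = 3.58e-05), and 8 were called lower once the library set was a covariate. With IL-6, 5 of 20 were called higher, among them Stfa2 at 5.10 and Mmp8 at 1.38 (limma adjusted p = 0.000137 and 0.0112), against 2 with the library set as a covariate and 3 after quantile normalization. Of all tested genes, 8.89% were called lower and 5.02% higher with IL-4, and 3.49% higher with IL-6. The summed level of the neutrophil list is set by Chil3 with IL-4, at 13967 FPKM or more. Whether the Ly6g level moved with the number of granulocytic cells was not tested.

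Interferon-stimulated genes, a class known to include Ly6e and Ly6a, were called with IL-6 at about the share of all tested genes, so nothing is read from those counts. That share was 3.49% higher and 1.89% lower with IL-6, and 5.02% higher and 8.89% lower with IL-4. Of 30 such genes, 1 was called higher with IL-6, Ifi44 (log2 fold change 1.09, limma adjusted p = 0.04), and 1 lower, Ifit3b (-1.07, adjusted p = 0.0188), with a list median of 0.31. Both calls were lost in limma with the replicate block, where 10 genes had an unadjusted p under 0.05, and after quantile normalization, where 9 had. With the library set as a covariate, limma called 1 higher and 0 lower with IL-6. There 18 had an unadjusted p under 0.05, against 11 in the main fit. With IL-4, 14 of 30 were called lower and 2 higher, the median was -1.24, and Ifit3, Oas2 and Ifit1 fell, with log2 fold changes of -3.90, -3.79 and -2.66 (limma adjusted p = 2.68e-05, 2.15e-05 and 0.000157). Ly6e stood at 0.02 and Ly6a at -0.08. Whether interferon signaling bears on the levels of Ly6e or Ly6a was not tested. With the library set as a covariate, 8 of 30 were called lower and 4 higher with IL-4. Of 27 genes for the synthesis and attachment of the GPI anchor that these proteins carry, limma called 1 lower with IL-4, the mannosyltransferase Pigv (-1.23, SE 0.137, adjusted p = 0.000412), and 0 with IL-6, where voom on the recovered fragments called 0. An unadjusted limma p was under 0.05 for 12 with IL-4 and for 5 with IL-6. With the library set as a covariate, 1 was called higher and 1 lower with IL-4. These genes summed to 221 to 232 FPKM in control, 203 to 211 FPKM with IL-4 and 199 to 206 FPKM with IL-6.

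**Figure D5:**
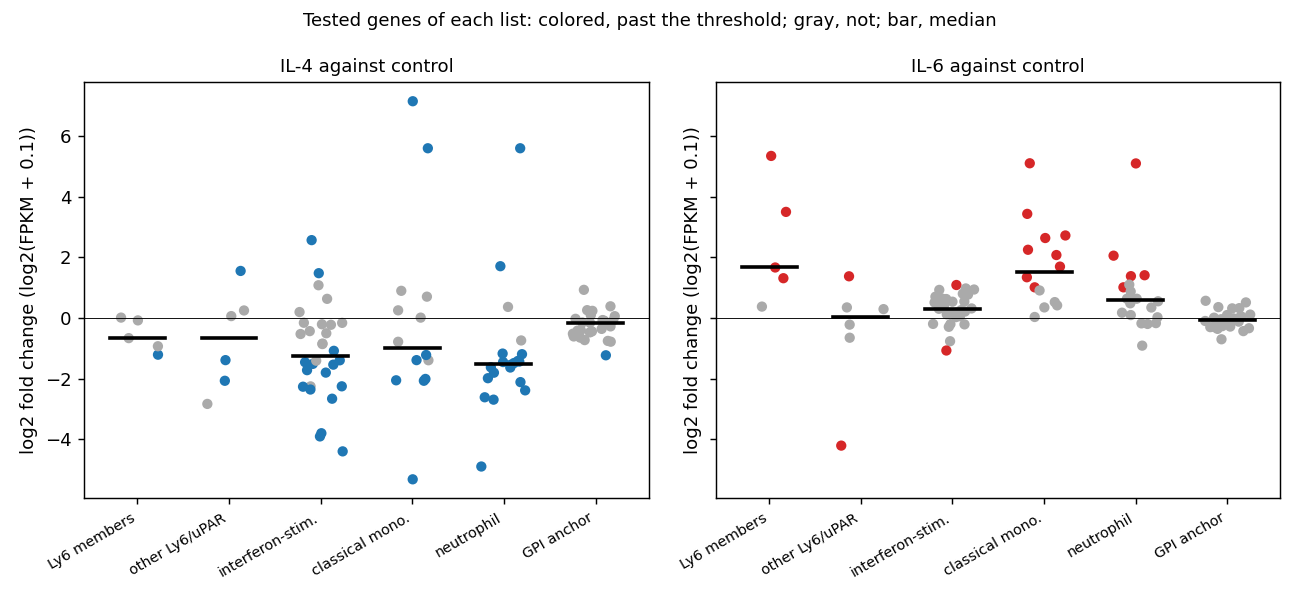
Log2 fold change against control (log2(FPKM + 0.1)) of each tested gene in 6 lists, for IL-4 and IL-6, colored where called and gray where not, with the list median as a bar. With IL-6 the medians are 1.67 for the Ly6 members, 1.52 for classical monocyte genes and 0.31 for interferon-stimulated genes, and with IL-4 those of the Ly6 members and the interferon-stimulated genes are -0.66 and -1.24. The -0.66 is the value of Ly6i, near the floor in control and IL-4 libraries.

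Each member was set beside the 3 tested genes closest to it in pattern over the 9 libraries. By Pearson's r of log2(FPKM + 0.1), given as a description over 9 libraries that fall into 3 groups, the nearest tested genes to Ly6a were Colq (r = 0.98), the complement gene C4b and Dtx2. Ly6i was nearest to Sod2, the mitochondrial superoxide dismutase (r = 0.99), the gap junction gene Gja1 and the complement gene Cfb. Ly6c2 was nearest to Serpina3b (r = 0.99), Sytl4 and the phosphofructokinase gene Pfkl, Ly6e to Sp140 (r = 0.98), Tspan9 and Ly6a, and Ly6g to Pglyrp1, a neutrophil peptidoglycan recognition protein (r = 0.97), Mapk13 and Slfn1. Between members, r was highest for Ly6a with Ly6i, at 0.98, and lowest for Ly6e with Ly6g, at 0.53, while Ly6c2 with I830127L07Rik reached 0.97. The ranks rest on small steps in r: for Ly6a, Dtx2 had 0.9785, and Ly6i, outside its nearest 3, had 0.9772.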

How the data were processed

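The RNA-seq libraries (TruSeq mRNA Stranded kit, HiSeq2500) were read from the deposited table, whose values the authors normalized to FPKM. The study names STAR 2.4.2a, GRCm38, Cufflinks 2.2.1 and GENCODE M5 as the tools and references used. Of 53379 gene identifiers, 94.8% matched GENCODE M21 with their version, and coordinates and transcripts come from M21. Multiplied by exon length and depth, 100.0% of the 183346 nonzero values came within 0.05 of a whole fragment. Whole fragments are not what Cufflinks usually gives, so the program that made the table is not settled. Intervals and the floor of 3 fragments cover counting error only.

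All 9 libraries entered a single limma 3.58.1 fit (R 4.3.3) of log2(FPKM + 0.1), with trend and robust eBayes and Benjamini-Hochberg adjustment over 12824 genes. Ly6c1 fell below the filter. Self-tests on simulated data preceded the fit. Sequences were aligned with Biopython 1.88, and promoter windows come from RefSeq (GRCm38.p6). The Ly6 genes, the gene lists and the tests were chosen with earlier results of these data known. The genes named are the 6 members, the tested family genes, up to 4 called genes of each list with the largest log2 fold change, the 3 tested genes most like each member, and the most abundant list genes. Family genes below the filter have levels only.

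The column names carry m1 to m3, read as mouse numbers, and by these the libraries were paired in the replicate block only. The main fit held no pairing. That a number is the same mouse in each condition is not stated. Same-numbered libraries deviated from their group means with r of 0.521, -0.415 and 0.0777 (control with IL-4), 0.408, 0.201 and 0.166 (IL-6 with control) and 0.281, -0.0612 and 0.153 (the cytokines). Alternatives were another pseudocount (1 or 0.01) or filter (none, or a mean of 5), median-ratio or quantile scaling, only the groups compared, the replicate block, the library set as a covariate, and leaving out each library. voom on the recovered fragments was chosen after seeing the data. Plots were made with matplotlib 3.10.9.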

Additional observations from a re-analysis of the deposited data

How the results depend on the processing

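Among 171 recomputed counts of called genes, 149 stayed within 1.5 times of the reported value and 22 did not, and no log2 fold change of a called member changed sign. Those of the uncalled Ly6a and Ly6e for IL-4 against control did, running from -0.42 to 0.61 and from -0.22 to 0.48 over the alternatives. All genes called with IL-4 against control numbered 1784, and 847 under a minimum mean of 5 FPKM, 1111 with the library set as a covariate, and 1450 to 2150 without single libraries. With IL-6 against control they numbered 690, then 306, 187 and 387 to 1001 under the same changes. With IL-6 against IL-4 they numbered 2613, and 1219 under a minimum mean of 5 FPKM. The filter and the left-out libraries test fewer genes or samples, and for the set the cause was not tested.

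The 1 member called with IL-4, Ly6c2, was lost with the library set as a covariate (0 called), and Ly6g joined it without IL-4 #3 (1 to 2 called over single left-out libraries). Ly6a, Ly6c2, Ly6e and Ly6i were called with IL-6 against control in 18 of 19 alternatives. The other is a minimum mean of 5 FPKM, where Ly6i was not tested and 3 were called. With IL-6 against IL-4, Ly6g was lost in 7 of 19. The alternatives reuse the same libraries, the members were chosen with these comparisons known, and Ly6i passed the filter only through its IL-6 libraries. Nothing is therefore read from these counts. In the main fit, 8.89% of all tested genes were called lower with IL-4, 3.49% higher with IL-6 and 13.6% higher with IL-6 against IL-4. The share under each alternative is not given here. With the library set the log2 fold changes for IL-6 against control were 4.54 for Ly6a, 2.28 for Ly6c2, 2.01 for Ly6e, 0.16 for Ly6g and 5.63 for Ly6i. Of the other family genes, 2 were called with IL-6 against control, and 1 with a pseudocount of 0.01, a minimum mean of 5 FPKM or the replicate block, 0 with the library set and 1 to 2 without single libraries, where Lypd8 was the gene lost. The library set also ended the call of I830127L07Rik. Against IL-4, 3 were called, and 5 with no filter. With same-numbered libraries paired in a replicate block, no other call of a member or tested family gene changed.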

Other observations

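Genes of the family below the filter were read from their levels alone and were chosen here after their values were seen. Ly6g6e and Ly6g6d, which lie on chromosome 17, had 0.387 ± 0.0815 and 0.391 ± 0.182 FPKM with IL-6 (SD, n = 3 each) against 0.0149 ± 0.0259 and 0.169 ± 0.0439 in control and 0.0805 ± 0.0718 and 0.0700 ± 0.0396 with IL-4. For Ly6g6e these are 60 fragments and for Ly6g6d 74 fragments over the 9 libraries, so neither level is firm.

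A further pseudogene of the locus was read from its levels alone. Gm5960 (chr15:75071112-75074638, plus strand), between Ly6c1 and Ly6c2, averaged 0.857 FPKM in control Mϕs, 0.666 after IL-4 and 4.98 after IL-6. I830127L07Rik shares 35 stretches of 50 bases with it, and whether its fragments arose from that gene was not tested. Of the 46 annotated genes of the 884.6 kb locus, 23 had no fragment in any library and 9 had a mean of at least 0.5 FPKM.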
